A study of Mus musculus with 9 samples.

Results

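Cytochrome P450 genes were compared in cells sorted from mouse liver before birth, at stage E15.5, and after birth, at stages P5 and P10 (E for the embryonic and P for the postnatal day). The family was taken as every gene whose symbol begins with Cyp followed by a family number, a subfamily letter and a gene number, leaving out Cyp26a1, Cyp26b1, Cyp7a1, Cyp8b1 and Cyp27a1. This gave 80 of the 19938 genes measured singly, each read by 1 probe set. They comprised 3 genes of family Cyp1, 44 of Cyp2, 6 of Cyp3, 16 of Cyp4 and 11 of other families, and 3 of them are annotated as pseudogenes (Cyp2d13, Cyp2d37-ps and Cyp4f41-ps). Another 15 of the 92 protein-coding genes that RefSeq lists under the same rule, among them Cyp3a41a, Cyp4v3 and Cyp24a1, had no probe set of their own symbol and were not analysed here.

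Cytochromes P450 are haem proteins that insert 1 oxygen atom into a substrate, taking electrons from P450 oxidoreductase and cytochrome b5 in the endoplasmic reticulum or from ferredoxin in mitochondria. Enzymes of families Cyp1, Cyp2 and Cyp3 oxidise drugs, environmental chemicals and steroids, those of Cyp4 hydroxylate fatty acids at their far end, and those of higher numbers mostly make or break down sterols, steroid hormones, bile acids, retinoids and vitamin D. In adult liver most drug-metabolising P450s are made by hepatocytes, and many are switched on around birth and weaning under nuclear receptors such as the pregnane X receptor, the constitutive androstane receptor and PPARα.

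Each of the 3 stages had 3 arrays, described by the submitters as independent replicates. All cells came from C57BL/6 mice carrying a Cxcl12DsRed/+ genotype, in which a red fluorescent protein reports the chemokine gene Cxcl12 from 1 allele. The sort kept DsRed+ cells without CD45 and Ter119, which mark white and red blood cells, and the labels call the cells stromal. No endothelial or epithelial marker is named in this gate. The labels do not say how many animals gave a sample or whether livers were pooled, so p-values measure the spread between arrays, which may be technical.

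Values are log2 signals of Affymetrix arrays normalised by RMA, so a difference of 1 is a 2-fold change in signal. Differences are given ± SE from a linear model over all 9 arrays (limma), means are given ± SD of 3 arrays, and a gene was called at a Benjamini-Hochberg adjusted p under 0.05 over all 19938 genes. The 2 contrasts with E15.5 share its arrays, and their values are set side by side. P450 genes of a subfamily have similar sequences, so a probe set may also pick up RNA of a close relative, and signals of different genes were not compared in level. The number of arrays limits precision, and no background measure came with the values: 50 of the 80 genes at E15.5, then 34 at P5 and 32 at P10 lay under the 30th percentile of all genes (log2 signals 5.69, 5.70 and 5.66), and 30 did so at all stages. Differences measured from such dim values may understate the change in RNA.

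At P5, 39 P450 genes were higher than at E15.5 and 6 were lower, and 35 did not pass the test. The called share was 56.2% of the family against 35.6% of all genes, and the share called higher was 48.8% against 17.9%, while 17.7% of all genes were called lower. At P10 against E15.5 the counts were again 39 higher and 6 lower, a called share of 56.2% against 38.7% of all genes, of which 20.1% were called higher and 18.6% lower. A test over the 3 stages together called 48 of the 80, where 38.3% of all genes were called. The median difference of the family was 0.28 at P5 and 0.27 at P10 relative to E15.5, against 0.029 and 0.024 over all genes. With dim values set to a floor at the 30th percentile the family's medians were 0.010 and 0.052, and with quantile normalisation that at P10 was 0.42. Differences of 2-fold or more were found in 29 genes that rose and 2 that fell at P5, and in 31 that rose and 2 that fell at P10. Of all genes, 7.2% rose and 6.8% fell that far at P5, and 9.06% and 8.21% did so at P10. The genes therefore spread widely, from Cyp20a1, which fell by 2.08, to Cyp2e1, which rose by 7.17 between E15.5 and P5.

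From P5 to P10, only 3 P450 genes rose (Cyp2c29, Cyp2c55 and Cyp2c39) and 4 fell (Cyp4a10, Cyp4a14, Cyp2s1 and Cyp2d11), 8.75% of the family against 5.65% of all genes (2.76% higher and 2.89% lower). The rises and 1 of the decreases reached 2-fold, as did 0.396% and 0.813% of all genes. The median difference of the family over this interval was -0.0021. Read over both intervals, 35 genes rose and then showed no called change, 4 rose and then fell, 6 fell and then showed no called change, 3 were first called between P5 and P10, and 32 were called in neither interval. The later change differed from the earlier one, by a test of that difference itself, in 41.2% of P450 genes against 16.6% of all genes. The later change was lower than the earlier one in 30 genes and higher in 3, against 8.7% and 7.93% of all genes. A gene that rose and then levelled off counts as lower in this test. The 3 genes were Cyp2c29, Cyp2c55 and Cyp20a1. Of these, Cyp20a1 did not rise: it fell by 2.08 at P5 and differed by -0.56 from P5 to P10 (adjusted p 0.15). The intervals are of unequal length, since the first runs from before birth to P5. Arrays of P5 lay wholly above those of E15.5 for 47 P450 genes and wholly below for 7, and such separation in either direction was found for 45.2% of all genes (24.1% higher). Between P10 and E15.5 the counts were again 47 and 7, against 51.7% of all genes (27.9% higher), and between P10 and P5 they were 12 and 15, against 20.2% (10.6% higher).

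**Figure D1:**
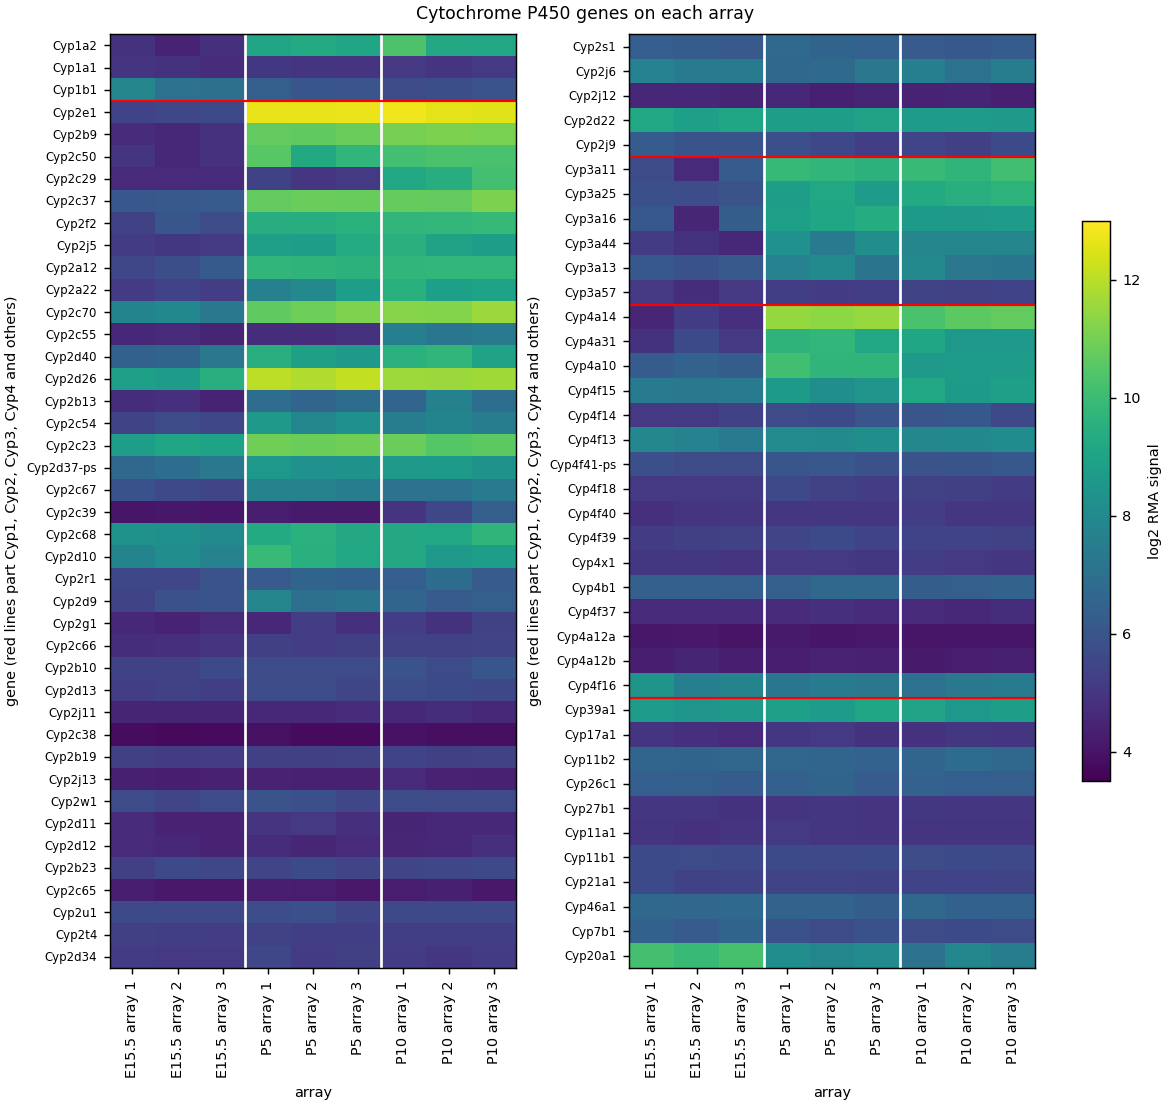
Log2 RMA signal of the 80 P450 genes (rows) on the 9 arrays (columns), with white lines between stages and red lines between Cyp1, Cyp2, Cyp3, Cyp4 and other families, and genes ordered within each family by their difference between P10 and E15.5. Most genes at the top of the Cyp2, Cyp3 and Cyp4 blocks are dark at E15.5 and bright at both P5 and P10. Cyp2c29, also near the top of its block, is bright only at P10. Most genes of the last block change little.

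Markers of several liver cell types moved between the same stages. The mean log2 signal of 25 hepatocyte markers was 10.34 to 10.44 on the E15.5 arrays, 12.04 to 12.14 at P5 and 11.88 to 12.15 at P10, and 19 of them rose and 0 fell between E15.5 and P5. At P10 against E15.5, 12 rose and 3 fell (median 0.19), and between P5 and P10 4 rose and 9 fell (median -0.26). Of all genes, 17.9%, 20.1% and 2.76% were called higher in these contrasts, and 17.7%, 18.6% and 2.89% were called lower. Albumin (Alb), the main plasma protein made by hepatocytes, read 13.03 to 13.22 on every array, and its difference between P5 and E15.5 was 0.06 (adjusted p 0.482). Albumin was thus bright at every stage although the cells are labelled stromal, and the median of the 25 hepatocyte markers was 11.09 to 11.26 at E15.5. Some markers of the list were dim at that stage, such as Tdo2 at 4.66. Tat at 5.68 lay just under the 30th percentile of all genes (5.69). The 15 markers of hepatic stellate cells, mesenchymal cells of liver that store vitamin A, averaged 9.79 to 9.97 at E15.5, then 8.08 to 8.47 at P5 and 7.80 to 8.05 at P10. Of these, 14 fell and 0 rose between E15.5 and P5, 13 fell and 0 rose at P10 against E15.5, and 4 fell and 0 rose between P5 and P10. Cxcl12 itself fell relative to E15.5, by 0.81 ± 0.17 (adjusted p 0.00555).

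The 12 sinusoidal endothelial markers averaged 7.98 and 8.35 on P5 arrays 2 and 3, against 6.52 on P5 array 1 and 6.70 to 7.27 at P10, so results that rest on the P5 arrays were also computed without arrays 2 and 3. That fit keeps only P5 array 1. Arrays 2 and 3 were also the P5 arrays with a high signal of the Y-linked gene Eif2s3y, given below. The fit cannot tell these differences apart. Mesothelial markers (7 genes) averaged 9.52 to 9.84 at P5, 8.50 to 8.56 at E15.5 and 8.10 to 8.37 at P10, and 5 cholangiocyte markers were also highest at P5, at 7.20 to 7.36. Markers of macrophages and blood averaged 5.18 to 5.51 on all arrays, and Ptprc, which encodes CD45, averaged 5.05 at E15.5, then 5.11 at P5 and 5.10 at P10. More hepatocyte markers rose than fell in both contrasts with E15.5, and more fell than rose between P5 and P10. Most called P450 genes rose in both contrasts with E15.5, and between P5 and P10 3 rose and 4 fell. The part of the marker changes in any P450 result was not tested. In RNA from a sorted population, a change in the share of cells of one type and a change in RNA per cell cannot be told apart.

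**Figure D2:**
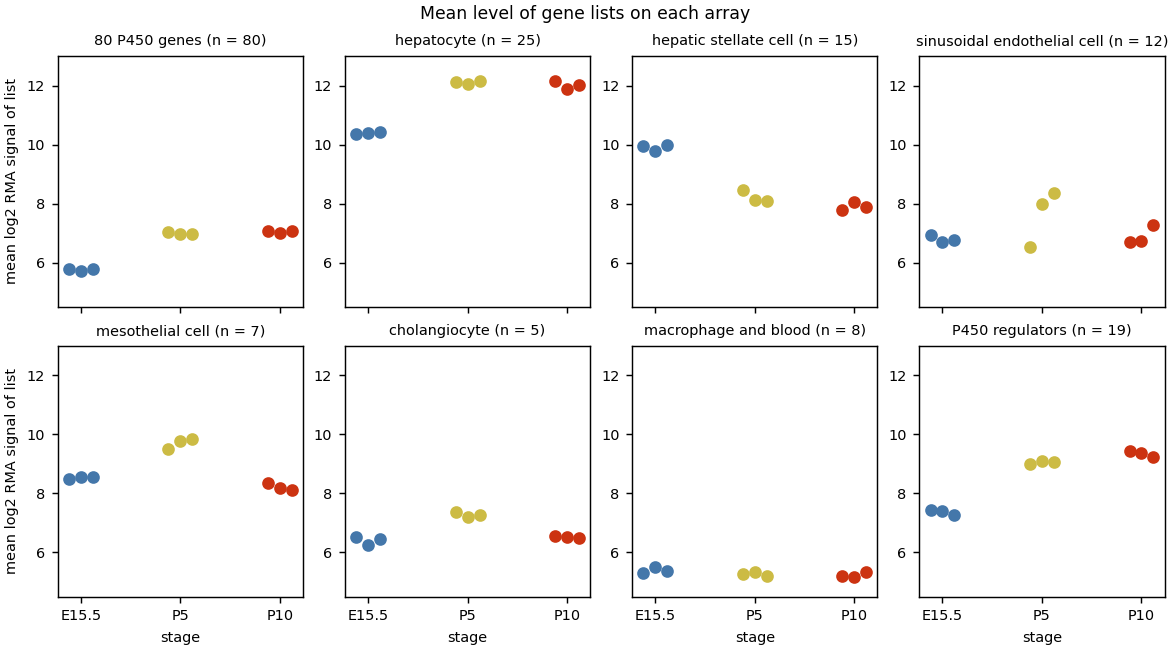
Mean log2 RMA signal of the 80 P450 genes, of 6 lists of cell type markers and of the P450 regulators (panels, with the number of genes) on each array (dots) at E15.5, P5 and P10. Hepatocyte markers and P450 regulators sit higher on all P5 and P10 arrays than on any E15.5 array, stellate cell markers sit lower, and 2 of the 3 P5 arrays stand apart for endothelial markers.

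Family Cyp1 holds the enzymes of the aryl hydrocarbon receptor response, and its 3 genes differed in direction. Cyp1a2, which oxidises caffeine and aromatic amines in adult liver, read 4.91, 4.42 and 4.82 at E15.5, 9.10, 9.31 and 9.10 at P5, and 10.35, 9.25 and 9.21 at P10. All postnatal arrays lay far above all E15.5 arrays, with differences of 4.46 ± 0.29 at P5 (adjusted p 7.1e-06) and 4.89 ± 0.29 at P10 (adjusted p 2.9e-06). P10 array 1 stood more than 1 unit above the other P10 arrays, and between P10 and P5 the difference was 0.43 ± 0.29 (adjusted p 0.525). Cyp1b1, which hydroxylates oestrogens and activates procarcinogens and is known mainly from tissues other than hepatocytes, went the opposite way. It read 7.81, 7.08 and 6.99 at E15.5, 6.39, 6.03 and 6.00 at P5, and 5.68, 5.79 and 5.92 at P10. The stages did not overlap, and Cyp1b1 fell by 1.15 ± 0.21 at P5 (adjusted p 0.00285) and by 1.49 ± 0.21 at P10 (adjusted p 0.000531). Without P5 arrays 2 and 3 its adjusted p at P5 was 0.0802. Cyp1a1, the form most strongly induced by dioxin-like compounds, averaged 4.84 ± 0.13, 4.97 ± 0.052 and 5.04 ± 0.079 in the same order of stages and did not pass the test in any contrast, although its rises of 0.22 and 0.34 over E15.5 were called after quantile normalisation (adjusted p 0.0336 and 0.00515).

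The 250 bases before the start of a few genes are printed to show the promoters of members of 1 family that moved in opposite directions, and of genes the results below turn on. They were read 5′ to 3′ on the gene's strand from RefSeq on GRCm38.p6, and capitals mark motifs found by search, with positions counted back from the first base of the transcript. Cyp1a2 (chr9:57683656-57683905, minus strand) holds TATAAA at 29 to 24 bases before its start. Cyp1b1 (chr17:79715062-79715311, minus strand) holds CACGC, the reverse complement of GCGTG, the core bound by the aryl hydrocarbon receptor, at 76 to 72 bases before its start.
Cyp1a2: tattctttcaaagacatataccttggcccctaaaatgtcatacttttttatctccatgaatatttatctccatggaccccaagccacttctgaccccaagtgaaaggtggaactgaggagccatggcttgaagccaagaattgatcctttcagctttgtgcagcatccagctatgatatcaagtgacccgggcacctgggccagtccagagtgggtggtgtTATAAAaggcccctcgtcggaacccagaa
Cyp1b1: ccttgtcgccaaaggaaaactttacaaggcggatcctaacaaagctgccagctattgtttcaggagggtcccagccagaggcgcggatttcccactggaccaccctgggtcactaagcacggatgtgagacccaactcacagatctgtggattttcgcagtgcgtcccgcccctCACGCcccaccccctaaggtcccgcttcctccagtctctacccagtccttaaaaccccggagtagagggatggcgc

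Family Cyp2 was the largest, and 24 of its 44 genes rose and 2 fell between E15.5 and P5. At P10 against E15.5 the counts were 26 and 2, and at P10 against P5 they were 3 and 2. The shares called higher were 54.5%, 59.1% and 6.82%, against 17.9%, 20.1% and 2.76% of all genes. The median difference was 0.45, 0.72 and 0.035 in these contrasts, and with the floor it was 0.086 at P5 and 0.39 at P10. Cyp2e1, which oxidises ethanol and paracetamol, had the highest difference of all P450 genes. It read 5.42, 5.53 and 5.63 at E15.5, 12.69, 12.68 and 12.72 at P5, and 12.79, 12.60 and 12.52 at P10. The postnatal arrays were all close together and about 7 units above every E15.5 array. The rise was 7.17 ± 0.084 at P5, a 144-fold higher signal (adjusted p 1.3e-09), and the difference from P5 to P10 was -0.06 ± 0.084 (adjusted p 0.812). The 6 largest rises of the family Cyp2 at P10 relative to E15.5 were those of Cyp2e1 (7.11 ± 0.084), Cyp2b9 (6.36 ± 0.080), Cyp2c50 (5.43 ± 0.27), Cyp2c29 (4.94 ± 0.22), Cyp2c37 (4.71 ± 0.11) and Cyp2f2 (4.12 ± 0.14), with adjusted p from 1.0e-09 to 1.0e-06. Its promoter (chr7:140763569-140763818, plus strand), shown because it belongs to the gene with the greatest rise, holds TATAAA at 31 to 26 bases before the start.
Cyp2e1: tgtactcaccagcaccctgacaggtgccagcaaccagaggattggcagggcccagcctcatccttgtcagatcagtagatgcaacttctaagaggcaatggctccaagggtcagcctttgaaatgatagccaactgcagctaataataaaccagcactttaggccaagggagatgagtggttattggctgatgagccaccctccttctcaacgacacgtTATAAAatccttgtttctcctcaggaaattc

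In the Cyp2b subfamily, some of whose members answer to phenobarbital through the constitutive androstane receptor, 2 of 5 genes rose at P5. At P10 relative to E15.5, 3 rose. These were 40% and 60%, against 17.9% and 20.1% of all genes. Cyp2b9, a form known to prevail in adult female mice, read 4.72, 4.58 and 4.85 at E15.5, 10.72, 10.68 and 10.84 at P5, and 11.04, 11.12 and 11.07 at P10. Its stages did not overlap, and it rose by 6.03 ± 0.080 at P5 (adjusted p 1.6e-09). Its further difference of 0.33 ± 0.080 from P5 to P10 did not pass the test (adjusted p 0.0552). That difference was called with dim values set to a floor (0.0166) and with arrays centred on the median of all genes (0.0363). Cyp2b13, another female-prevalent form, rose by 2.13 ± 0.24 at P5 (adjusted p 0.000195), and its P10 arrays spread from 6.60 to 7.67. Cyp2b10, the classic target of phenobarbital, rose only in the contrast of P10 with E15.5, by 0.45 ± 0.10 (adjusted p 0.00691), from a dim signal of 5.45 ± 0.15, and with dim values set to a floor this call was lost (adjusted p 0.0777).

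Cyp2a12 and Cyp2a22, the steroid- and drug-oxidising genes of the Cyp2a subfamily measured here, both rose at P5, by 3.85 ± 0.15 (adjusted p 4.2e-07) and 2.89 ± 0.29 (adjusted p 8.6e-05). Cyp2f2, which activates naphthalene in the airway and is also made in liver, averaged 5.69 ± 0.32 at E15.5, then 9.48 ± 0.075 at P5 and 9.81 ± 0.056 at P10. Its rise was 3.78 ± 0.14 at P5 and 4.12 ± 0.14 at P10 (adjusted p 3.6e-07 and 1.6e-07). Cyp2r1, a vitamin D 25-hydroxylase, rose by 0.75 ± 0.18 at P5 and 0.82 ± 0.18 at P10 (adjusted p 0.0118 and 0.0067), and its call at P5 was lost without P5 arrays 2 and 3 (adjusted p 0.181).

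Cyp2s1 averaged 6.27 ± 0.084, 6.60 ± 0.12 and 6.20 ± 0.074 at E15.5, P5 and P10. It rose by 0.33 ± 0.080 at P5 (adjusted p 0.0113) and fell again by 0.40 ± 0.080 from P5 to P10 (adjusted p 0.0263), so that it was highest at P5. The decrease was not called without any 1 of P5 arrays 1 and 2 and the P10 arrays (adjusted p 0.0592 to 0.0958). Cyp2u1, a fatty acid hydroxylase, had the same value of 5.60 on all 3 E15.5 arrays, which leaves no spread at that stage, and its differences from E15.5 were 0.09 and 0.00 (adjusted p 0.473 and 0.977).

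The Cyp2c subfamily, whose mouse members epoxidise arachidonic acid and oxidise drugs, was split in timing. Of its 13 genes, 8 rose and 0 fell at P5 and 11 rose at P10 relative to E15.5, and 3 rose between P5 and P10. The shares called higher were 61.5%, 84.6% and 23.1%, against 17.9%, 20.1% and 2.76% of all genes. Cyp2c37 read 6.09, 6.16 and 6.25 at E15.5, 10.72, 10.82 and 10.81 at P5, and 10.77, 10.71 and 11.14 at P10. It rose by 4.61 ± 0.11 at P5 (adjusted p 4.8e-08) and differed by 0.09 ± 0.11 from P5 to P10 (adjusted p 0.777). Cyp2c50 behaved likewise, with a rise of 5.05 ± 0.27 at P5 (adjusted p 2.3e-06), and Cyp2c70, which makes muricholic bile acids in mice, rose by 3.24 ± 0.18 (adjusted p 3.3e-06).

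Cyp2c29, an epoxygenase known to be induced through the constitutive androstane receptor, followed another course. It read 4.68, 4.65 and 4.62 at E15.5, 5.35, 4.99 and 5.12 at P5, and 9.20, 9.43 and 10.15 at P10. The P5 arrays were still dim, and all P10 arrays lay at least 3 units above them. The rise from P5 to P10 was 4.44 ± 0.22, a 21.7-fold higher signal (adjusted p 0.000128), and no other of the 19938 genes had a greater rise in that contrast. Cyp2c55 read 4.57, 4.66 and 4.48 at E15.5, 4.75, 4.71 and 4.86 at P5, and 7.61, 7.23 and 7.38 at P10, a rise of 2.63 ± 0.10 from P5 to P10 (adjusted p 3.6e-05). For both genes the difference between E15.5 and P5 did not pass the test (adjusted p 0.114 and 0.168). Cyp2c39, a retinoic acid hydroxylase, read 4.07, 4.11 and 4.06 at E15.5, 4.26, 4.18 and 4.19 at P5, and 4.91, 5.51 and 6.37 at P10. Its P10 arrays spread over more than 1 unit, and its rise of 1.39 ± 0.30 (adjusted p 0.0347) lost its call when any 1 of the E15.5 or P5 arrays or P10 array 2 was left out (adjusted p 0.0571 to 0.0986). Its signal was dim at all stages, and with a floor at the 30th percentile its rise was 0.23 and was called neither against P5 (adjusted p 0.709) nor against E15.5 (adjusted p 0.462).

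The Cyp2c genes measured here lie on chromosome 19, in the order Cyp2c55, Cyp2c65, Cyp2c66, Cyp2c29, Cyp2c39, Cyp2c38, Cyp2c67, Cyp2c68, Cyp2c37, Cyp2c54, Cyp2c50, Cyp2c70 and Cyp2c23 in the RefSeq gene table. That source was used for order only, and the distances between the genes were not looked at. The 3 genes that rose between P5 and P10 are among the first 6, and the last 7 were all called higher at P5 than at E15.5. Of the first 6, Cyp2c66 was the only one called higher at P5, by 0.43 ± 0.070 (adjusted p 0.00149). It lay under the 30th percentile of all genes at all stages, and with dim values set to that floor its difference was 0. Cyp2c65 and Cyp2c38 were called in no contrast. The position of the genes was looked at with their values known, and no test was made of it.

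**Figure D3:**
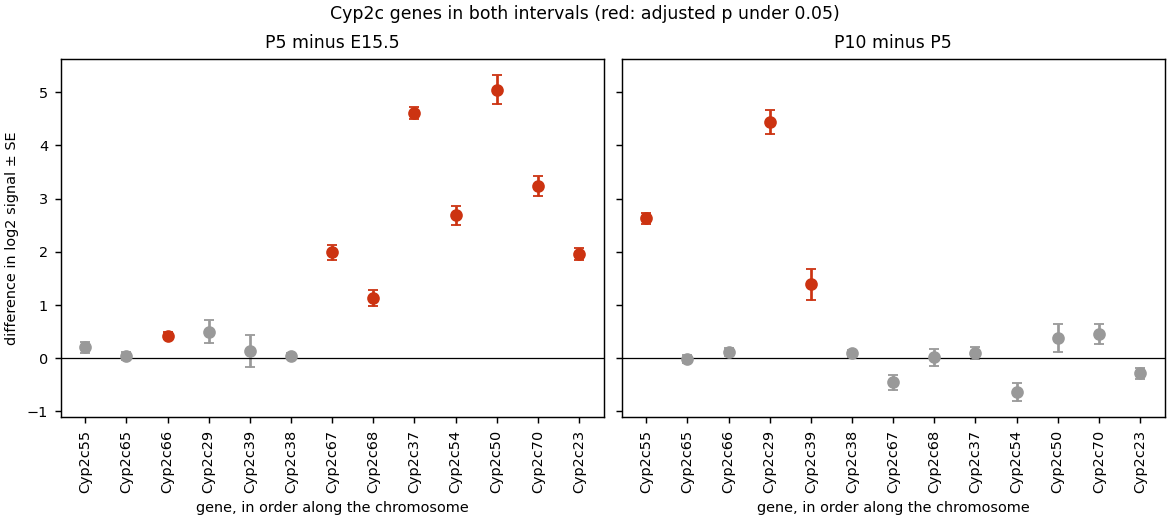
Difference in log2 signal ± SE for the 13 Cyp2c genes in their order along the chromosome, for P5 minus E15.5 (left) and P10 minus P5 (right), red where the adjusted p was under 0.05. The 7 genes on the right of the left-hand panel are all red and above 0, and in the right-hand panel the red points are Cyp2c55, Cyp2c29 and Cyp2c39.

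The promoters of Cyp2c29 (chr19:39286835-39287084, plus strand), which rose late, and Cyp2c37 (chr19:39992174-39992423, plus strand), which rose early, were chosen for print after their values were seen. Cyp2c29 holds TATAAA at 19 to 14 bases before its start, and Cyp2c37 holds TTAAGCAA, the reverse complement of the C/EBP motif TTGCNNAA, at 94 to 87. Over 250 aligned upstream bases they share 60%, Cyp2c37 and Cyp2c50 share 86%, and the late genes Cyp2c29 and Cyp2c55 share 57.2%.
Cyp2c29: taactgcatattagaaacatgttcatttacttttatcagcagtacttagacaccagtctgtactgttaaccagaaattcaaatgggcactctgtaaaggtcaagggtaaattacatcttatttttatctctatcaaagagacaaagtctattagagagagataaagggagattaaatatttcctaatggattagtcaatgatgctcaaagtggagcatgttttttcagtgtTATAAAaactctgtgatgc
Cyp2c37: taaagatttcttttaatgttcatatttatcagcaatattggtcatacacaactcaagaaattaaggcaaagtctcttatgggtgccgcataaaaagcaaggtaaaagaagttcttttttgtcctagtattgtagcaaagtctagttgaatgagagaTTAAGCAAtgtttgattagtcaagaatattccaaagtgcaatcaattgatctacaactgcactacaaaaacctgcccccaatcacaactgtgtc

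Of the 10 genes of the Cyp2d subfamily, which oxidises many amine drugs, 7 rose and 0 fell at P5. At P10 relative to E15.5, 5 rose and 1 fell. The shares called higher were 70% and 50%, against 17.9% and 20.1% of all genes. Cyp2d26 read 8.87, 8.76 and 9.46 at E15.5, 12.07, 11.86 and 12.14 at P5, and 11.61, 11.56 and 11.66 at P10, rising by 3.00 ± 0.17 at P5 (adjusted p 3.3e-06). Its P10 arrays all lay below its P5 arrays, but the difference of -0.42 ± 0.17 did not pass the test (adjusted p 0.238). Cyp2d9, a steroid hydroxylase known to prevail in adult male mice, averaged 5.77 ± 0.28, 7.31 ± 0.43 and 6.39 ± 0.19 at E15.5, P5 and P10. It rose by 1.55 ± 0.23 at P5 (adjusted p 0.000791). Its differences of 0.63 from E15.5 to P10 and -0.92 from P5 to P10 did not pass the test (adjusted p 0.0583 and 0.0555). Both were called in some other fits. Examples are quantile normalisation for E15.5 to P10 (0.0147) and a filter at the 30th percentile for P5 to P10 (0.0343).

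Cyp2d10 averaged 7.88 ± 0.23, 9.55 ± 0.38 and 8.90 ± 0.31 and rose by 1.67 ± 0.22 at P5 (adjusted p 0.000468). Cyp2d22 was the only Cyp2d gene called lower than at E15.5, by 0.34 ± 0.088 at P10 against E15.5 (adjusted p 0.0143), a call lost when arrays were centred on the median of all genes (adjusted p 0.0532), and also without E15.5 array 1 (0.0519), E15.5 array 3 (0.0504) or P10 array 3 (0.0545). Cyp2d11 rose by 0.48 ± 0.091 at P5 (adjusted p 0.00351) and fell by 0.40 ± 0.091 from P5 to P10 (adjusted p 0.0439), at dim signals of 4.39 to 5.08. With dim values set to a floor both differences were 0. The latter call was also lost without any 1 of E15.5 arrays 2 and 3, P5 arrays 1 and 2 and the P10 arrays (adjusted p 0.053 to 0.126). The promoter of Cyp2d10 (chr15:82407195-82407444, minus strand) is printed for its direct repeat, 2 copies of AGGNCA with 1 base between, which nuclear receptors such as HNF4α and PPARα with RXR can bind, at 57 to 45 bases before the start.
Cyp2d10: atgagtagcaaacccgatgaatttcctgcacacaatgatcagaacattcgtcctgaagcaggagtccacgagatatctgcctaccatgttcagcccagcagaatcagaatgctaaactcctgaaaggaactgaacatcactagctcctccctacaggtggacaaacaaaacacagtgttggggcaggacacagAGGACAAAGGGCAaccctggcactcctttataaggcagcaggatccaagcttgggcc

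The Cyp2j subfamily, of arachidonic acid epoxygenases, was split. At P5 1 gene rose and 2 fell, where 17.9% of all genes were called higher and 17.7% lower. Cyp2j5 averaged 5.10 ± 0.063 at E15.5, then 8.99 ± 0.30 at P5 and 9.09 ± 0.38 at P10, a rise of 3.89 ± 0.20 at P5 (adjusted p 2.0e-06). Cyp2j6 and Cyp2j9 fell at P5, by 0.60 ± 0.19 (adjusted p 0.0422) and 0.52 ± 0.15 (adjusted p 0.0268), and the other 3 of the 6 genes did not pass the test. Cyp2j9 was also lower at P10, by 0.59 ± 0.15 (adjusted p 0.0138), while Cyp2j6 was not called there (adjusted p 0.679). Neither decrease at P5 was firm. That of Cyp2j6 was lost without any 1 of the E15.5 arrays, P5 arrays 1 and 2 and P10 array 3 (adjusted p 0.059 to 0.136), and with dim values set to a floor (0.0851), and that of Cyp2j9 without E15.5 array 1 (0.0944), P5 array 2 (0.0606), P5 array 3 (0.0676) or both of these P5 arrays (0.316). The decrease of Cyp2j9 at P10 was lost without E15.5 array 1 (0.0536) or P10 array 2 (0.0537). All values of Cyp2j6 lay above the floor, and its difference at P5 was unchanged with it.

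All 6 genes of family Cyp3, the subfamily Cyp3a that oxidises steroids and many drugs, were higher at P10 than at E15.5. At P5 5 of them were higher, all 5 by more than 2-fold. Of all genes, 20.1% were called higher at P10 and 17.9% at P5. The median difference was 3.07 at P5 and 2.98 at P10. Cyp3a11, the main adult liver form and a target of the pregnane X receptor, read 5.70, 4.68 and 6.27 at E15.5, 9.88, 9.75 and 9.59 at P5, and 9.93, 9.72 and 10.12 at P10. The stages before and after birth did not overlap, and the rise was 4.19 ± 0.34 at P5 and 4.38 ± 0.34 at P10 (adjusted p 2.7e-05 and 1.5e-05). Cyp3a16, known as a fetal and neonatal form in mice, read 6.10, 4.52 and 6.31 at E15.5, 8.85, 9.11 and 9.37 at P5, and 8.66, 8.65 and 8.72 at P10. It too rose, by 3.47 ± 0.41 at P5 and 3.03 ± 0.41 at P10 (adjusted p 0.000235 and 0.000405), and its difference of -0.44 ± 0.41 between P5 and P10 did not pass the test (adjusted p 0.686).

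These were the 2 genes with the widest spread within stages of all 80 (pooled SD 0.58 for Cyp3a16 and 0.49 for Cyp3a11), and both were lowest on E15.5 array 2. The gene with the narrowest spread was Cyp27b1, with a pooled SD of 0.043. Cyp3a44 and Cyp3a25 rose by 3.07 ± 0.24 and 3.06 ± 0.14 at P5 (adjusted p 2.2e-05 and 9.9e-07), and Cyp3a13, a form also found in gut, by 1.58 ± 0.26 (adjusted p 0.00141). Cyp3a57 was called only at P10 against E15.5, with a rise of 0.45 ± 0.097 (adjusted p 0.00611) from a dim signal of 4.97 ± 0.20, which was 0 with dim values set to a floor. None of the 6 was called between P5 and P10, where 5.65% of all genes were. The nearest was Cyp3a25, with a difference of 0.57 ± 0.14 (adjusted p 0.0547). It was called there when arrays were centred on the median of all genes (0.0319) and without P5 array 2 (0.017). The upstream sequence of Cyp3a11 (chr5:145879855-145880104, minus strand) is shown for its HNF4 core CAAAGTCCA at 109 to 101 bases before the start, and its other capitals mark TATAAA at 234 to 229.
Cyp3a11: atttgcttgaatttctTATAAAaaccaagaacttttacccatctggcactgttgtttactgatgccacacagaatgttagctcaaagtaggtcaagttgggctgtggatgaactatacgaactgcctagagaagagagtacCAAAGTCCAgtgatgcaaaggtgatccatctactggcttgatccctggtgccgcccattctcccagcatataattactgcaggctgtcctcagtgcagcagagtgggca

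**Figure D4:**
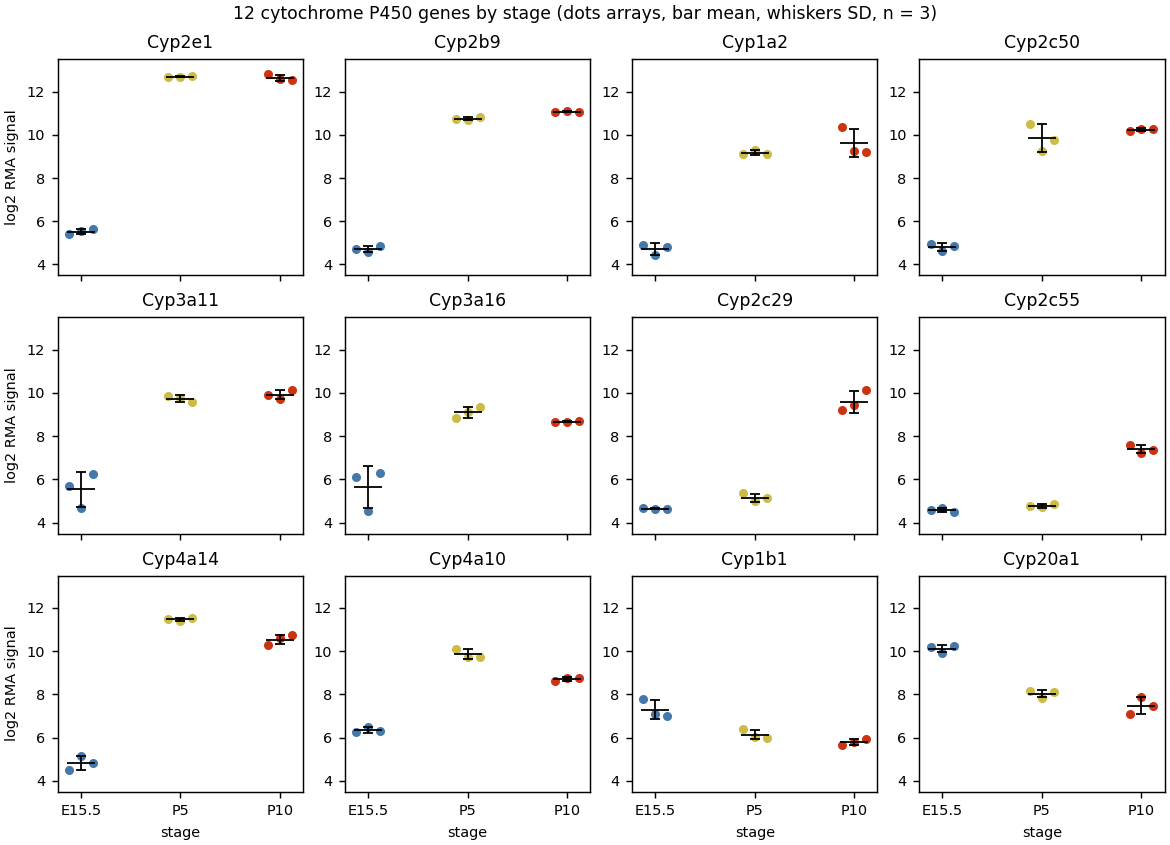
Log2 RMA signal of 12 P450 genes by stage, with dots for arrays, a bar for the mean and whiskers for the SD (n = 3). Cyp2e1, Cyp2b9, Cyp1a2, Cyp2c50, Cyp3a11 and Cyp3a16 step up by P5 and stay there, Cyp2c29 and Cyp2c55 step up only at P10, Cyp4a14 and Cyp4a10 are highest at P5, and Cyp1b1 and Cyp20a1 step down.

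In family Cyp4, 9 of 16 genes rose and 1 fell at P5, 6 rose and 1 fell at P10 relative to E15.5, and 2 fell between P5 and P10. The shares called higher at P5 and P10 were 56.2% and 37.5%, against 17.9% and 20.1% of all genes. From P5 to P10, 2.89% of all genes were called lower. The median difference was 0.24, 0.18 and -0.082 in these contrasts, and with the floor it was 0.052, 0.0060 and 0. The fatty acid hydroxylases Cyp4a10 and Cyp4a14, targets of PPARα, were highest at P5. Cyp4a14 read 4.53, 5.17 and 4.83 at E15.5, 11.50, 11.40 and 11.54 at P5, and 10.29, 10.60 and 10.73 at P10. The 3 stages did not overlap. It rose by 6.64 ± 0.17 at P5 (adjusted p 5.1e-08) and then fell by 0.94 ± 0.17 (adjusted p 0.0164), a decrease that missed the threshold without P10 array 2 (adjusted p 0.0536) and without P5 arrays 2 and 3 (adjusted p 0.115).

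Cyp4a10 read 6.26, 6.50 and 6.31 at E15.5, 10.12, 9.72 and 9.71 at P5, and 8.62, 8.77 and 8.76 at P10. It rose by 3.50 ± 0.12 at P5 (adjusted p 2.4e-07) and fell by 1.13 ± 0.12 from P5 to P10 (adjusted p 0.00199), the only decrease of 2-fold or more in that interval among the 80 genes. Cyp4a31 rose by 4.35 ± 0.24 at P5 (adjusted p 2.9e-06), and its difference of -0.79 ± 0.24 between P5 and P10 did not pass the test (adjusted p 0.11). Cyp4a12a and Cyp4a12b, forms known from adult male mice, stayed dim and were called in no contrast.

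Changes in the Cyp4f subfamily, which hydroxylates leukotrienes and long-chain fatty acids, were smaller. Of 9 genes, 6 rose and 1 fell at P5, and 3 rose and 1 fell at P10. The shares called higher were 66.7% and 33.3%, against 17.9% and 20.1% of all genes. Cyp4f18 and Cyp4f39 were called only at P5, with rises of 0.31 ± 0.094 and 0.24 ± 0.079 (adjusted p 0.0339 and 0.0475). With dim values set to a floor both of these differences were 0. Cyp4f15 rose by 1.07 ± 0.15 at P5 and 1.53 ± 0.15 at P10 (adjusted p 0.000686 and 6.5e-05), and Cyp4f14 by 0.59 ± 0.16 and 0.73 ± 0.16 (adjusted p 0.0188 and 0.00591). With dim values set to a floor at the 30th percentile, neither call of Cyp4f14 was kept (0.10 and 0.26, adjusted p 0.737 and 0.213). Its call at P5 was also lost without E15.5 array 1 (0.0659), E15.5 array 2 (0.062) or P5 array 3 (0.0574). Cyp4f13 rose by 0.43 ± 0.11 at P5 (adjusted p 0.0155), a call lost without both P5 arrays 2 and 3 (0.138), and was not called at P10 (adjusted p 0.075). The pseudogene Cyp4f41-ps rose by 0.25 ± 0.075 at P10 (adjusted p 0.0284), and without E15.5 array 2 or 3 or P10 array 2 or 3 it did not (adjusted p 0.051 to 0.0997). Cyp4f16 fell by 0.62 ± 0.19 at P5 (adjusted p 0.0359) and by 0.65 ± 0.19 at P10 (adjusted p 0.0262). Its E15.5 arrays read 8.40, 7.58 and 7.74, all above the P5 and P10 arrays at 7.09 to 7.37, and the call at P5 was lost without any 1 of the P5 arrays or P10 arrays 2 and 3 (adjusted p 0.0514 to 0.0919), and that at P10 without P10 array 1 (0.0881) or 2 (0.0591). With dim values set to a floor, neither call was kept (adjusted p 0.0749 and 0.0579). All values of Cyp4f16 lay above that floor, and its differences there were unchanged. Cyp4b1, which hydroxylates fatty acids and activates protoxins and is best known from lung, averaged 6.40, 6.59 and 6.41 and was called in no contrast.

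None of the 11 genes of other families rose in any contrast, and 2 fell at P5 and at P10 against E15.5. These 2 were 18.2% of the group, near the 17.7% and 18.6% of all genes that were called lower in these contrasts. Cyp20a1, a P450 with no known substrate, read 10.20, 9.92 and 10.24 at E15.5, 8.17, 7.84 and 8.10 at P5, and 7.09, 7.86 and 7.48 at P10. All E15.5 arrays lay above all others, and it fell by 2.08 ± 0.19 at P5 (adjusted p 5.2e-05) and fell by 2.64 ± 0.19 at P10 (adjusted p 8.9e-06), the largest decreases among the 80 genes. Cyp7b1, the oxysterol 7α-hydroxylase of the alternative bile acid pathway, read 6.45, 6.21 and 6.55 at E15.5, 5.87, 5.66 and 5.88 at P5, and 5.71, 5.62 and 5.66 at P10. It fell by 0.60 ± 0.099 at P5 and 0.74 ± 0.099 at P10 (adjusted p 0.00155 and 0.000375). Cyp39a1, which hydroxylates 24-hydroxycholesterol, averaged 8.59, 8.90 and 8.81 and was not called (adjusted p 0.132 at P5).

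Of the genes for steroid hormones and vitamin D, Cyp11a1, the side-chain cleavage enzyme, averaged 4.93 to 5.03 at the 3 stages, Cyp17a1 4.80 to 5.0 and Cyp27b1, the vitamin D 1α-hydroxylase, 4.95 to 5.02. All 3 lay under the 30th percentile of all genes and were called in no contrast, nor was Cyp46a1, the neuronal cholesterol 24-hydroxylase, at 6.46 to 6.70. The region upstream of Cyp20a1 (chr1:60343050-60343299, plus strand) is printed as that of the gene with the largest decrease. It holds a C/EBP motif at 154 to 147 bases before the start and the GCGTG core at 132 to 128, reversed, and at 32 to 28.
Cyp20a1: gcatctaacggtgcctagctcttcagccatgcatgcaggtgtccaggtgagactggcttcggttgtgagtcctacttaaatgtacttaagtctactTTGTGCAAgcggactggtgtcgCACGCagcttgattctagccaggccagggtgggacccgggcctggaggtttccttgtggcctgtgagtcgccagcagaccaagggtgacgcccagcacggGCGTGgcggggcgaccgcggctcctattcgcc

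Of the 80 genes, 58 had a RefSeq promoter entry on GRCm38.p6, and motifs were searched in the 250 bases before the first listed start, on both strands except for the TATA box, which was read on the gene's strand. The HNF4 core CAAAGTCCA was found in 10.3% of the P450 promoters and 0.381% of 27025 promoters of all genes. Its carriers were Cyp2c65, Cyp2c67, Cyp2c68, Cyp2c70, Cyp3a11 and Cyp3a16, and all but Cyp2c65 were among the 26 genes with a promoter entry that were called at least 2-fold higher at P5 or P10. The direct repeat, 2 copies of AGGNCA with 1 base between, was in 5.17% against 0.333%, in Cyp2d9, Cyp2d10 and Cyp2d40. These carriers are close relatives, so the matches are not independent of one another.

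The motif TATAAA was in 25.9% of P450 promoters against 8.12% of all, and the C/EBP motif TTGCNNAA in 19% against 9.55%. The aryl hydrocarbon receptor core GCGTG was in 22.4% against 28.2%. Counting only genes with a promoter entry, it was in 1 of the 26 that rose at least 2-fold. It was in 4 of the 5 with an entry that were called lower at P5 or P10. Other genes called lower had no entry and were not searched. The HNF1 motif GTTAAT was in 5.17% against 6.52%. Median GC content of the upstream bases was 44.4% for these 26 genes, 56.8% for the 5 with an entry that were called lower and 52% for all genes. The HNF4 core and the direct repeat can overlap, and no P450 promoter held both.

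Genes that serve P450 enzymes mostly rose as well. Of 6 electron donors and haem-protein partners measured, 5 rose and 1 fell at P5, and the same numbers held at P10 against E15.5. Among all genes, 17.9% were called higher and 17.7% lower at P5, and 20.1% and 18.6% at P10. Cytochrome b5 (Cyb5a) rose by 1.91 ± 0.062 (adjusted p 1.7e-07) and ferredoxin (Fdx1) by 1.68 ± 0.12 (adjusted p 1.4e-05) at P5. The cytochrome b5 reductase gene Cyb5r3 rose by 1.85 ± 0.13 and mitochondrial cytochrome b5 (Cyb5b) by 1.70 ± 0.16 (adjusted p 1.4e-05 and 6.2e-05). Pgrmc2, a haem-binding membrane protein, fell by 0.78 ± 0.058 (adjusted p 1.6e-05). Of 11 genes of haem synthesis and breakdown, 7 rose and 1 fell at P5, 8 rose and 1 fell at P10, and 2 rose between P5 and P10. Between P5 and P10, 2.76% of all genes were called higher. Alas1, the rate-limiting enzyme of haem synthesis in liver, read 8.43, 8.31 and 8.10 at E15.5, 9.82, 9.81 and 9.73 at P5, and 11.16, 11.55 and 11.40 at P10. It differed between all 3 stages, rising by 1.50 ± 0.11 at P5 and by a further 1.58 ± 0.11 at P10 (adjusted p 1.8e-05 and 0.000594). Ferrochelatase (Fech), which inserts the iron, rose by 1.54 ± 0.14 at P5 (adjusted p 5.9e-05), and Cpox, an earlier enzyme of the pathway, by 1.70 ± 0.14 (adjusted p 3.3e-05). The biliverdin reductase genes Blvra and Blvrb, which act after haem oxygenase, rose by 0.60 ± 0.070 and 2.31 ± 0.27 at P5 (adjusted p 0.000229 and 0.000209), and Blvra rose by a further 0.42 ± 0.070 between P5 and P10 (adjusted p 0.0131). Haem oxygenase 1 (Hmox1), which breaks haem down, fell by 0.77 ± 0.19 at P5 (adjusted p 0.0115).

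Among 19 measured nuclear receptors and other factors that regulate P450 genes, 17 rose and 0 fell at P5. At P10 relative to E15.5 16 rose, and 5 rose between P5 and P10. The shares called higher were 89.5%, 84.2% and 26.3%, against 17.9%, 20.1% and 2.76% of all genes. The constitutive androstane receptor (Nr1i3) read 6.56, 6.70 and 6.65 at E15.5, 10.19, 10.19 and 10.42 at P5, and 10.32, 10.83 and 10.19 at P10, a rise of 3.63 ± 0.16 at P5 (adjusted p 7.1e-07). The pregnane X receptor (Nr1i2) rose by 2.71 ± 0.15 (adjusted p 2.6e-06) and Ppara by 3.46 ± 0.10 (adjusted p 1.2e-07). Nr0b2, a co-repressor of nuclear receptors, rose by 4.40 ± 0.12 (adjusted p 8.0e-08), and C/EBPα (Cebpa) by 2.15 ± 0.066 (adjusted p 1.3e-07). Hlf, a clock-linked factor, rose by 2.25 ± 0.086 (adjusted p 3.8e-07), and the pioneer factor Foxa2 and the common receptor partner Rxra rose again between P5 and P10, by 0.42 ± 0.089 and 0.41 ± 0.080 (adjusted p 0.0317 and 0.0248). The aryl hydrocarbon receptor (Ahr) rose over both intervals, by 0.70 ± 0.073 at P5 and a further 0.91 ± 0.073 at P10 (adjusted p 0.000111 and 0.000705), whereas its partner Arnt was not called (adjusted p 0.31 at P5).

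In the growth hormone pathway, which sets the sex pattern of adult liver P450s, 5 of 8 genes rose and 1 fell at P5. At P10 against E15.5, 6 rose and 0 fell. The shares called higher were 62.5% and 75%, against 17.9% and 20.1% of all genes. Socs2, a target and inhibitor of the pathway, rose by 2.87 ± 0.14 at P5 (adjusted p 1.5e-06), Cish, another inhibitor, by 1.03 ± 0.10 (adjusted p 7.4e-05), and Stat5b, its transcription factor, by 0.89 ± 0.13 (adjusted p 0.000695). Cux2 and Bcl6, repressors with opposite sex patterns in adult liver, were both higher at P10 than at E15.5, by 0.84 ± 0.097 and 0.80 ± 0.15 (adjusted p 0.00015 and 0.00235), and the kinase Jak2 fell by 0.75 ± 0.19 at P5 (adjusted p 0.0145). Eif2s3y, a gene of the Y chromosome, read 7.94 to 9.24 on E15.5 array 3, both P5 arrays 2 and 3, and the first P10 array. It read 3.96 to 4.14 elsewhere. The arrays thus differed in RNA of a Y-linked gene, and the part of sex in the values of Cyp2b9, Cyp2b13, Cyp2d9 and other P450s with a known sex pattern was not tested.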

How the data were processed

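RNA of CD45- Ter119- Cxcl12-DsRed+ liver cells was measured on 9 Affymetrix arrays, 3 each at E15.5, P5 and P10. Per the labels' protocols, Trizol was used for total RNA and biotinylated cRNA was made from it. The deposited values are log2 signals that the authors made by robust multi-array averaging (RMA), per the submitters' processing notes, which also list Transcriptome Analysis Console 2.0 and Affymetrix Expression Console. This method subtracts background and gives probes of all arrays the same distribution before they are combined into probe sets, so a shift shared by most genes would be hidden. The array's genome build is not stated in these sources.

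Of 35556 probe sets, 21789 have 1 symbol in the platform annotation, 12146 are absent from it and 1621 carry several. Symbols were updated by Entrez identifier for 21698 probe sets, and each of 19938 genes was read from its probe set with the highest mean. Among the 80 P450 genes, 24 had exactly equal values on some arrays of a stage or between stages. Equal values within a stage, which lower the SD, were found in 15 of 240 pairs of gene and stage.

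Stage was fitted on all 9 arrays in limma 3.58.1 (R 4.3.3, statmod 1.5.0) with 6 residual and 2.22 prior degrees of freedom, and 2-sided moderated tests were adjusted over all genes (Benjamini-Hochberg). The procedure was tested on simulated data. Same-numbered arrays of different stages were not alike (Pearson r of residuals -0.079 to 0.069), so arrays were not paired. Alternatives changed scaling, dim values, probe sets, the variance model, the samples fitted and the size of a call. Leaving out P5 arrays 2 and 3 was chosen after seeing the data. The members, the gene lists and the rule for naming genes were chosen with earlier results of these data known. The rule names, per family and contrast, up to 6 called members with the largest rise and up to 4 with the largest decrease, a fixed list of well-known P450s, the members with the highest and lowest spread, and called genes of the pathway lists with the smallest adjusted p. Genes named beyond it were chosen after their values were seen. Python 3.11.15 and matplotlib 3.10.9 drew the figures.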

Additional observations from a re-analysis of the deposited data

How the results depend on the processing

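Over the alternatives tried, 32 of the 45 calls at P5 and 34 of the 45 at P10 against E15.5 were kept in every fit, as were 3 of the 7 between P5 and P10. Lost calls of 2-fold or more were Cyp1b1 at P5 and Cyp2c39 at P10 against both earlier stages. Of the 33 genes whose change differed between the intervals, 10 lost that call in some fit, Cyp20a1 among them (without P5 array 2, adjusted p 0.0632). The only change of direction was Cyp2t4 at P10 against E15.5, which quantile normalisation moved from -0.01 to 0.14 (adjusted p just under 0.05). Leaving out 1 array at a time gave 35 to 39 genes higher and 3 to 7 lower at P5, 37 to 40 and 4 to 6 at P10, and 2 to 4 and 1 to 4 between P5 and P10. In these fits the later change was lower than the earlier one in 26 to 30 genes and higher in 2 to 4. The replicate number as a block (replicate block) gave 38 higher and 5 lower at P5, 37 and 5 at P10, and 3 and 3 between P5 and P10. Without P5 arrays 2 and 3 there were 35 higher and 3 lower at P5. A 2-fold limit left 2, 2 and 1 genes lower in the 3 contrasts. Between P5 and P10, centring on the median of all genes gave 5 higher, and fitting only these stages gave 2 lower. Quantile normalisation raised the median of all genes to 0.117 at P5 and 0.150 at P10, and the share of called genes that were higher from 50.2% to 64.1% and from 51.8% to 69.4%, and for P450 genes from 86.7% to 91.1% and 90.6%. Median centring gave 65.6% at P10 for all genes, and between P5 and P10 63.5% against 48.8% for all genes and 55.6% against 42.9% for P450 genes. The family's median at P10 became 0.42 with quantile normalisation and 0.37 with median centring. In the same contrast Cyp2 became 0.90 with quantile normalisation, Cyp4 0.33 and 0.28, and the other families 0.19 and 0.10. At P5 quantile normalisation gave 0.36 for Cyp4 and 0.090 for the others. A floor at the 30th percentile lowered the medians at P5 and P10 to 0.010 and 0.052 for the family, 0.086 and 0.39 for Cyp2, 2.67 and 2.39 for Cyp3, and 0.052 and 0.0060 for Cyp4, and to 0 for Cyp1 at P10 and for Cyp4 between P5 and P10, because dim values at the floor have no difference. No group medians were computed for genes passing a filter at that percentile.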

Other observations

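Another 6 probe sets are annotated with several P450 symbols and no other gene, so none of them can be given to 1 gene. All 6 rose at P5 relative to E15.5, by 0.65 to 4.64, and all 6 rose at P10, by 0.96 to 3.96. Between P5 and P10 their differences ran from -1.21 to 0.54, and 1 of them fell.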
